A study of Mus musculus with 6 samples.

Results

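Glycolysis in inguinal white adipose tissue (iWAT) was followed through 10 genes for glycolytic enzymes that are not specific to skeletal muscle, chosen by symbol from the 36144 gene symbols of the series: *Hk1*, *Hk2*, *Gpi1*, *Pfkl*, *Pfkp*, *Aldoc*, *Gapdh*, *Pgk1*, *Pkm* and *Ldha*. All 10 were present in the files and all 10 passed the filter on low counts. RNA came from the whole iWAT, freed of lymph nodes, of 10-week-old chow-fed female mice on a C57BL6/J background that had free access to food. Both groups carried floxed *Cebpa* alleles: the 3 Cebpa_ASKO mice also carried AdipoQ-Cre, and the 3 Cebpa_fl/fl controls did not. Cre is driven by the *Adipoq* promoter and so acts in adiponectin-expressing cells, while the other cells of the depot keep *Cebpa*. Each mouse gave 1 poly-A library, and all 6 libraries carry the same batch label.

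Glycolysis converts glucose to pyruvate. Hexokinases trap glucose in the cell, phosphofructokinase commits it to breakdown, and pyruvate kinase and lactate dehydrogenase finish the path to lactate. Several steps have isozymes that differ between tissues. In white adipocytes the pathway also supplies glycerol 3-phosphate and acetyl-CoA for triglyceride. Skeletal muscle is rich in the same pathway but uses some isozymes of its own, so muscle genes were set beside the enzymes in each library.

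The libraries held between 33141769 and 49477671 estimated read counts, and no enzyme had fewer than 499 counts in a library. Values are read counts scaled to a common library size by edgeR's TMM method (CPM) unless given as TPM, a level per transcript length. *Cebpa*, the deleted gene, stood at 448, 465 and 498 CPM in Cebpa_fl/fl and at 37.7, 45.8 and 37.2 CPM in Cebpa_ASKO. *Adipoq* marks mature adipocytes, and the paper cites earlier work in which it is a downstream target of C/EBPα and PPARγ. *Adipoq* fell from 2602 ± 439 to 342 ± 37.5 CPM (SD, n = 3 each). In whole tissue, fewer cells of a type and less RNA per cell cannot be told apart.

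Of the 10 enzymes, 1 passed the test. *Hk1* rose 1.58-fold in Cebpa_ASKO at an adjusted p of 0.00387, by edgeR's quasi-likelihood test over 16069 genes, in which an adjusted p below 0.05 counted as a call. No enzyme was called lower, and none was lower at an unadjusted p below 0.05 or in DESeq2. Over all genes tested, 1.39% were called higher and 3.84% lower. All 10 fitted log2 fold changes were above 0, as were 53.9% of those of all genes, and their median was 0.50 against 0.02 for all genes. For 5 enzymes the genotypes were apart (*Hk1*, *Gpi1*, *Pfkp*, *Gapdh* and *Pkm*), each higher in Cebpa_ASKO, as they were for 12.9% of all genes in that direction. At an unadjusted p below 0.05, 4 enzymes were higher (*Hk1*, *Hk2*, *Gpi1* and *Pkm*), against 9.44% of all genes. DESeq2, the tool the study names for this step, called *Pkm* as well as *Hk1*.

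**Figure D1:**
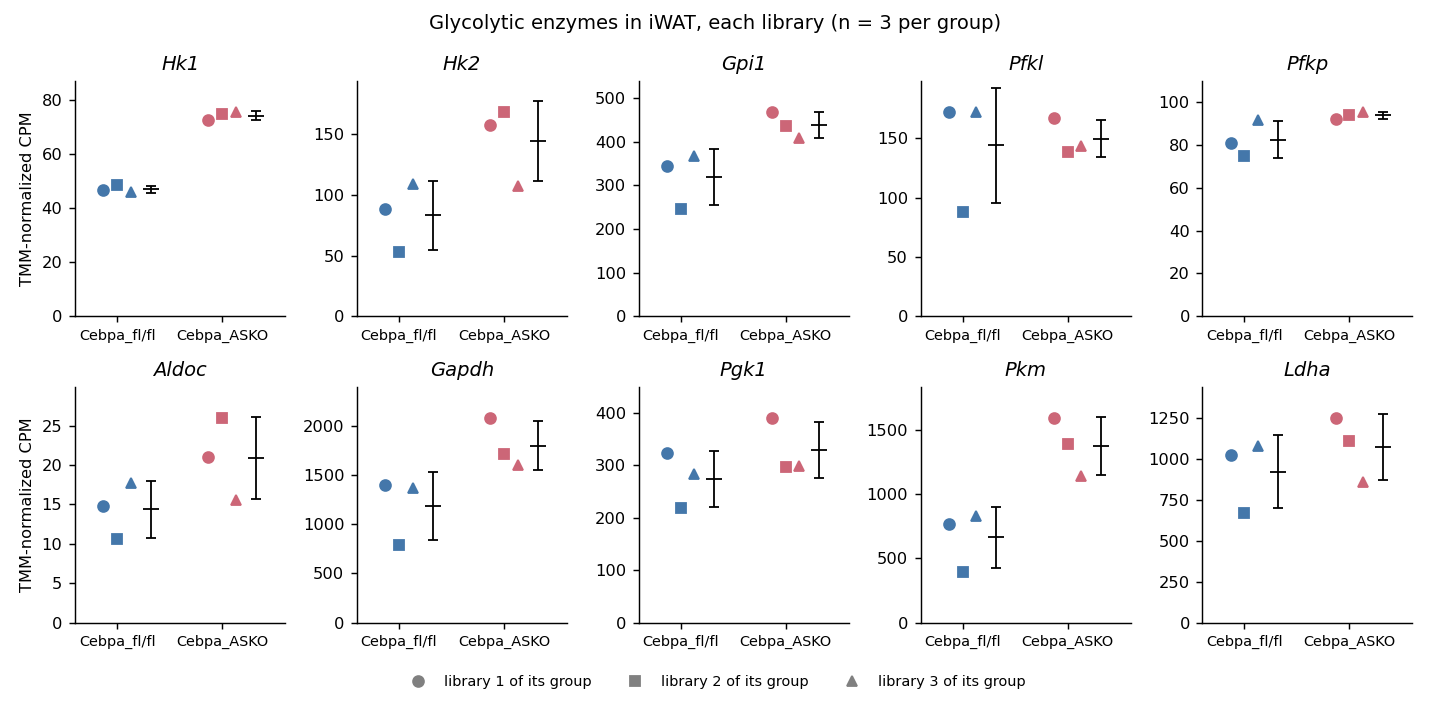
Level of each of the 10 enzymes in TMM-normalized CPM (vertical axes start at 0), with 1 point per library and, beside the points, the mean and SD of the 3 libraries of each genotype. The *Hk1* points lie close together within each genotype and far apart between genotypes, whereas the second control library is the lowest control for the 9 other enzymes.

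The sequences that set the 2 forms of pyruvate kinase apart are shown first, because the forms are read separately in the results. *Pkm* (chr9:59656368-59679375 on GRCm38, plus strand) uses 1 of 2 mutually exclusive coding exons. The M1 exon gives the form typical of adult skeletal muscle, heart and brain, and the M2 exon gives the form of most other tissues. Both are exon 9 of 11 in their own transcript and 167 bases long. They are read here from GENCODE M21 transcripts Pkm-202 (M1, chr9:59675029-59675195) and Pkm-201 (M2, chr9:59675568-59675734), and capitals mark the 64 positions at which they differ.
M1 exon: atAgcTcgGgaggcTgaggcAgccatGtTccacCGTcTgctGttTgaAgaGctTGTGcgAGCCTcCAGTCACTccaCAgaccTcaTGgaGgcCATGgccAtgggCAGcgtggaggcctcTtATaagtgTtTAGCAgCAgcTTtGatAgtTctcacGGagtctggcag
M2 exon: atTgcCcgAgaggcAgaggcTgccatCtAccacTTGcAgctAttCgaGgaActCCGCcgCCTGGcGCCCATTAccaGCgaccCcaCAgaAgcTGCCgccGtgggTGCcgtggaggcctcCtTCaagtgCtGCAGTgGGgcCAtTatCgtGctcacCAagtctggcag
The exons share 61.7% of their bases, so reads across them can be told apart.

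At the first step, *Hk1* and *Hk2* encode the hexokinases of most tissues, and *Hk2* is the form abundant in insulin-sensitive tissues. *Hk1* (chr10:62268855-62379908, minus strand) was at 46.5, 48.4 and 46.0 CPM in Cebpa_fl/fl and at 72.3, 74.5 and 75.5 CPM in Cebpa_ASKO. Its SD was 1.25 CPM in controls and 1.64 CPM in Cebpa_ASKO, and no library of one genotype came near the other. The log2 fold change was 0.66 (standard error 0.0701). The call was kept when any 1 library was left out, with log2 fold changes between 0.63 and 0.68. It was lost with the skeletal muscle share as a covariate, at a log2 fold change of 0.64 (adjusted p = 0.589), a fit in which 0 of 16069 genes were called. It was also lost with the mammary epithelium share as a covariate, at 0.72 (adjusted p = 0.104).

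*Hk1* counts fell on 2 main transcripts with different start sites. Hk1-201, which starts at position 62358362 of chromosome 10, was at 29.9, 22.7 and 27.0 CPM in Cebpa_fl/fl and at 40.7, 40.2 and 45.7 CPM in Cebpa_ASKO. Hk1-202, which starts at position 62340542, was at 16.5, 25.6 and 18.8 CPM and at 31.3, 34.1 and 29.7 CPM. Neither transcript overlapped between genotypes, and the ratios of the means were 1.59 for Hk1-201 and 1.56 for Hk1-202.

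*Hk2* was at 88.1, 52.6 and 109 CPM in Cebpa_fl/fl and at 158, 168 and 107 CPM in Cebpa_ASKO. The first and second Cebpa_ASKO libraries were above every control, and the third was within the control range. Its log2 fold change was 0.79 with a standard error of 0.290 (adjusted p = 0.193). Of the summed TPM of *Hk1*, *Hk2* and the blood cell hexokinase *Hk3*, *Hk2* took 60.6%, 50.5% and 68.3% in Cebpa_fl/fl and 68.6%, 66.1% and 51.4% in Cebpa_ASKO. These shares overlapped, with means of 59.8% and 62.1% (exact two-sided permutation test, p = 0.7). An exact test of 3 against 3 libraries cannot go below 0.1.

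*Gpi1*, which turns glucose 6-phosphate into fructose 6-phosphate, lies 888957 bases from *Cebpa* on chromosome 7 (chr7:34201330-34230336 and chr7:35119293-35121928 on GRCm38). It was at 344, 245 and 368 CPM in Cebpa_fl/fl and at 468, 437 and 408 CPM in Cebpa_ASKO. The genotypes did not overlap, but *Gpi1* did not pass the test (log2 fold change 0.46, standard error 0.170, adjusted p = 0.202).

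The phosphofructokinase step showed little difference in its non-muscle subunits. *Pfkl*, the liver-type subunit, was at 172, 88.0 and 173 CPM in Cebpa_fl/fl and at 167, 138 and 144 CPM in Cebpa_ASKO. The Cebpa_ASKO values all fell inside the control range, and the log2 fold change was 0.05 (standard error 0.258). It turned to -0.22 without Cebpa_fl/fl 2 and to -0.03 without Cebpa_ASKO 1. *Pfkp*, the platelet-type subunit, was at 80.9, 74.8 and 91.6 CPM in Cebpa_fl/fl and at 92.1, 94.0 and 95.4 CPM in Cebpa_ASKO. Its genotypes were apart by a narrow gap, and its log2 fold change of 0.19 (standard error 0.0957) had an adjusted p of 0.346. In TPM, *Pfkp* took 31.0%, 41.1% and 34.0% of phosphofructokinase in Cebpa_fl/fl and 31.0%, 28.0% and 34.2% in Cebpa_ASKO (exact two-sided permutation test, p = 0.4).

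Below phosphofructokinase, *Aldoc* encodes the brain-type aldolase and was the lowest of the 10 enzymes per length. It was at 14.9, 10.6 and 17.7 CPM in Cebpa_fl/fl and at 21.1, 26.0 and 15.6 CPM in Cebpa_ASKO, with overlap (log2 fold change 0.54, adjusted p = 0.292). *Aldoc* made up between 0.754% and 0.970% of aldolase TPM in the 6 libraries. Nearly all the rest was *Aldoa*, the muscle and general aldolase, at 1342 ± 331 TPM in Cebpa_fl/fl and 1878 ± 350 TPM in Cebpa_ASKO (SD, n = 3 each).

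*Gapdh*, which makes 1,3-bisphosphoglycerate and is widely used as a reference gene, was at 1398, 785 and 1365 CPM in Cebpa_fl/fl and at 2082, 1713 and 1603 CPM in Cebpa_ASKO. Every Cebpa_ASKO library was above every control, yet the log2 fold change of 0.60 (standard error 0.257) did not pass the test (adjusted p = 0.257). Set against other reference genes, the mean ratio in Cebpa_ASKO was 1.79 times that in Cebpa_fl/fl over *Hprt* and 1.54 times over *Tbp*, without overlap. *Hprt* itself was lower in each Cebpa_ASKO library than in any control (log2 fold change -0.23, adjusted p = 0.226 in edgeR), which raises its ratio. The mean ratio was 1.42 times as high over *Rplp0* and 1.39 times over *Actb*, but there the genotypes overlapped. Cebpa_ASKO 3 (1.47 over *Rplp0*, 0.821 over *Actb*) was below Cebpa_fl/fl 3 (1.59 and 1.10). None of a list of 12 reference genes without *Gapdh* was called in edgeR and 1 was in DESeq2, 2 were lower at an unadjusted p below 0.05, and the median log2 fold change was 0.03.

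The *Gapdh* level is less certain than the others, because 76 other genes of the annotation matched its transcripts over at least 300 bases at 95% identity or more. The copies held between 1.95% and 3.53% of the *Gapdh* counts in 4 libraries, but 12.7% in Cebpa_fl/fl 3 and 9.70% in Cebpa_ASKO 2. In those libraries *Gm10359* and *Gm12671*, which match *Gapdh* over 1002 bases without a difference, were each given 3521 and 2621 estimated counts, against 274 to 363 in the other 4. With the copies added, *Gapdh* was at 1426, 813 and 1539 CPM in Cebpa_fl/fl and at 2125, 1879 and 1646 CPM in Cebpa_ASKO, and the log2 fold change was 0.58 (adjusted p = 0.293). Copies of the other enzymes held at most 0.0307% of the enzyme's counts.

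*Pgk1*, which makes the first ATP of the pathway, was at 324, 218 and 283 CPM in Cebpa_fl/fl and at 391, 297 and 299 CPM in Cebpa_ASKO. A pair of Cebpa_ASKO libraries fell inside the control range (log2 fold change 0.26, adjusted p = 0.512).

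*Pkm* had the largest fitted difference of the 10 enzymes. It was at 769, 393 and 833 CPM in Cebpa_fl/fl and at 1598, 1396 and 1147 CPM in Cebpa_ASKO, a fitted ratio of 2.07. Every Cebpa_ASKO library was above every control. The log2 fold change was 1.05 with a standard error of 0.302, and the adjusted p was 0.113 in edgeR and 0.00678 in DESeq2. Without Cebpa_fl/fl 2, the lowest library, edgeR gave 0.77 (adjusted p = 0.0653).

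Both *Pkm* forms were higher in each Cebpa_ASKO library than in any control. Transcripts with the M2 exon were at 625, 342 and 686 CPM in Cebpa_fl/fl and at 1249, 1051 and 916 CPM in Cebpa_ASKO, a ratio of means of 1.95. Transcripts with the M1 exon were at 133, 46.6 and 134 CPM and at 326, 320 and 206 CPM, a ratio of means of 2.72. The M1 form made up 17.2%, 11.8% and 16.1% of *Pkm* counts in Cebpa_fl/fl and 20.4%, 22.9% and 18.0% in Cebpa_ASKO. The shares did not overlap and differed by 5.36 percentage points (two-sided exact permutation test, p = 0.1, the lowest value that can be reached). Within Cebpa_ASKO the M1 share had the order of the muscle sum described below, while among the controls it had the opposite order, lowest in Cebpa_fl/fl 2, where the muscle sum was highest. The M2 form was the larger one in every library.

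**Figure D2:**
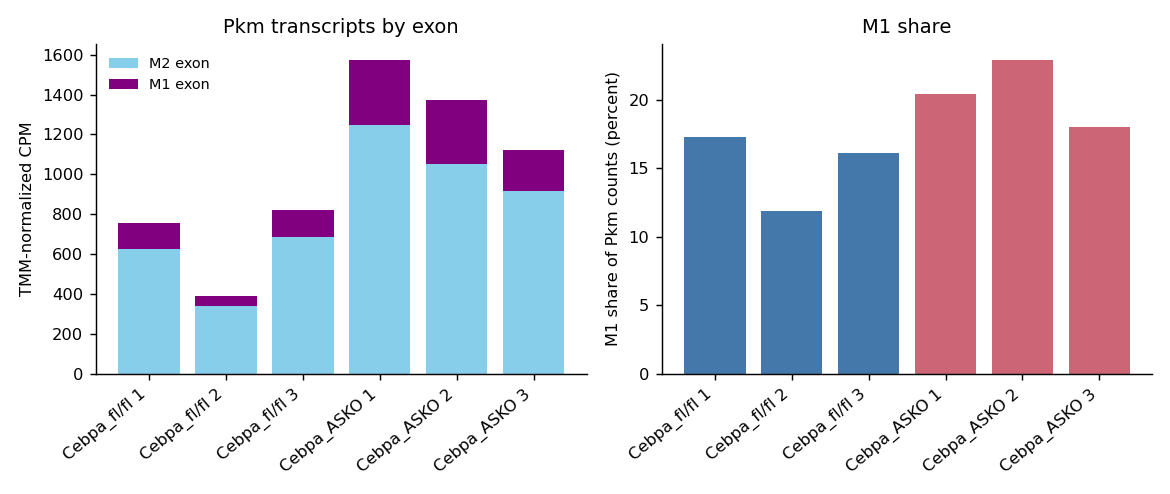
Left, *Pkm* transcripts in TMM-normalized CPM by the exon they carry, stacked for each library; right, the share of *Pkm* counts in transcripts with the M1 exon, in percent. The M1 share lies between 11.8% and 17.2% in Cebpa_fl/fl and between 18.0% and 22.9% in Cebpa_ASKO, and M2 is the larger form in all 6 libraries.

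*Ldha*, which reduces pyruvate to lactate, was at 1027, 670 and 1078 CPM in Cebpa_fl/fl and at 1254, 1114 and 859 CPM in Cebpa_ASKO. The third Cebpa_ASKO library lay inside the control range, and the log2 fold change of 0.22 had a standard error of 0.236 (adjusted p = 0.692). *Ldha* took 84.5%, 87.7% and 90.2% of its TPM summed with *Ldhb*, the heart-type subunit, in Cebpa_fl/fl. In Cebpa_ASKO it took 82.9%, 84.8% and 84.8%, a mean lower by 3.29 percentage points that overlapped the controls (exact two-sided permutation test, p = 0.3).

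The order of the 10 enzymes by mean level per length was almost the same in both genotypes. In Cebpa_fl/fl it ran from *Gapdh* at 1181 ± 298 TPM through *Ldha* at 775 ± 164, *Pkm* at 372 ± 127, *Gpi1* at 246 ± 42.4 and *Pgk1* at 196 ± 27.7 TPM (SD, n = 3 each). *Pfkl* at 49.5 ± 15.2, *Pfkp* at 38.3 ± 4.03, *Hk2* at 29.6 ± 6.87, *Hk1* at 15.1 ± 1.03 and *Aldoc* at 10.6 ± 2.19 TPM followed. In Cebpa_ASKO, *Hk2* at 50.6 ± 12.6 TPM stood above *Pfkp* at 44.3 ± 2.61 TPM, and the other ranks were unchanged. In controls the library values of *Gapdh* and *Ldha* overlapped, as did those of *Pkm* and *Gpi1*, *Gpi1* and *Pgk1*, *Pfkl* and *Pfkp*, and *Pfkp* and *Hk2*. In Cebpa_ASKO the overlapping neighbours were *Ldha* at 941 ± 117 and *Pkm* at 824 ± 79.4 TPM, *Pfkl* and *Hk2*, and *Hk2* and *Pfkp*.

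A list of 15 other enzymes of the pathway, 12 of which could be tested, held 3 called genes, all higher in Cebpa_ASKO. *Pfkm*, the muscle phosphofructokinase, was at 47.0, 44.9 and 49.8 CPM in Cebpa_fl/fl and at 89.1, 124 and 70.2 CPM in Cebpa_ASKO (log2 fold change 1.00, adjusted p = 0.0401). *Eno3*, the muscle enolase, was at 25.7, 35.2 and 24.3 CPM and at 84.1, 150 and 57.5 CPM (1.78, adjusted p = 0.0401). *Pgam2*, the muscle phosphoglycerate mutase, was at 4.68, 7.55 and 5.76 CPM and at 19.7, 41.3 and 13.5 CPM (2.05, adjusted p = 0.0453). All 3 are muscle isozymes, and all 3 were highest in Cebpa_ASKO 2 and lowest of the Cebpa_ASKO group in Cebpa_ASKO 3. None of them stayed called without Cebpa_fl/fl 1, 2 or 3, or without Cebpa_ASKO 1 or 2.

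The general isozymes of the same steps, and *Tpi1* of another step, did not pass the test. *Eno1* was at 1019, 503 and 1061 CPM in Cebpa_fl/fl and at 2233, 1822 and 1406 CPM in Cebpa_ASKO, a log2 fold change of 1.08 without overlap (adjusted p = 0.129 in edgeR and 0.00942 in DESeq2). *Pgam1* had a log2 fold change of 0.16, which was -0.04 without Cebpa_fl/fl 2, and *Tpi1*, which interconverts the triose phosphates, one of -0.19. Per length, *Eno1* made up between 88.7% and 95.8% of enolase, and *Pgam1* made up 96.4%, 90.9% and 95.3% of phosphoglycerate mutase in Cebpa_fl/fl and 86.7%, 71.7% and 90.0% in Cebpa_ASKO. The *Pfkm* share of phosphofructokinase TPM was 18.1%, 23.8% and 18.3% in Cebpa_fl/fl and 28.3%, 38.7% and 25.7% in Cebpa_ASKO.

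**Figure D3:**
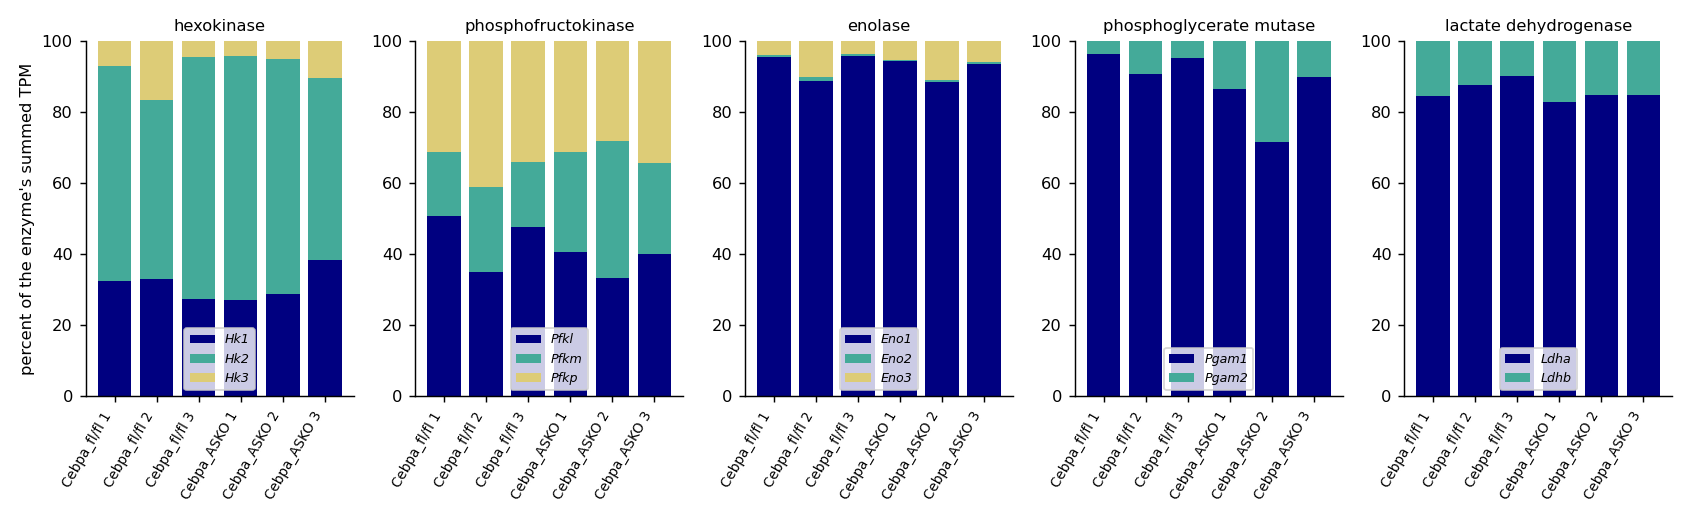
Share of each isozyme in the summed TPM of its enzyme, in percent, for each library. The muscle isozymes *Pfkm* and *Pgam2* take their largest shares in Cebpa_ASKO 2, at 38.7% and 28.3%, while the *Hk2* share varies within each genotype.

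The summed level of skeletal muscle genes was higher in every Cebpa_ASKO library than in any control. The sum of 30 muscle genes was 774, 1096 and 936 CPM in Cebpa_fl/fl and 3745, 7110 and 2472 CPM in Cebpa_ASKO, or 0.0755%, 0.111% and 0.0896% of counts against 0.358%, 0.737% and 0.262% (exact two-sided permutation test, p = 0.1). All 30 fitted differences were above 0, 23 genes were higher without overlap and 17 were called higher. Single muscle genes could go the other way in a library, as *Mb*, the myoglobin gene, did at 3.34, 12.9 and 11.7 CPM in Cebpa_fl/fl and 5.42, 23.6 and 4.62 CPM in Cebpa_ASKO. The defining markers *Acta1* and *Ckm* were present in every library.

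Most of the 10 enzymes did not have the muscle order among libraries. Within Cebpa_ASKO, 28 of the 30 muscle genes ran from library 2 down to library 1 and then library 3, and so did 2 of the 10 enzymes, *Hk2* and *Aldoc*. Library 1 was the highest for 6 enzymes. The shares of all genes with the muscle order, or highest in library 1, were not computed. The muscle sum was 2.88 times as high in Cebpa_ASKO 2 as in Cebpa_ASKO 3. For the 10 enzymes the same ratio lay between 0.961 (*Pfkl*) and 1.67 (*Aldoc*). It was 0.987 for *Hk1*, 1.07 for *Gpi1* and *Gapdh*, 1.22 for *Pkm*, 1.30 for *Ldha* and 1.58 for *Hk2*. Among the controls, Cebpa_fl/fl 2 had the highest muscle sum and the lowest level of 9 of the 10 enzymes, all but *Hk1*. Of all genes tested, 37.2% were lowest in that library among the controls. With the muscle share as a covariate the enzymes' median log2 fold change was 0.63, and *Aldoc* turned to -0.16. Since the muscle share did not overlap between genotypes, that fit can hardly separate it from genotype. The orders rest on 3 libraries per genotype, and the part of muscle RNA in the enzymes' differences was not tested.

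**Figure D4:**
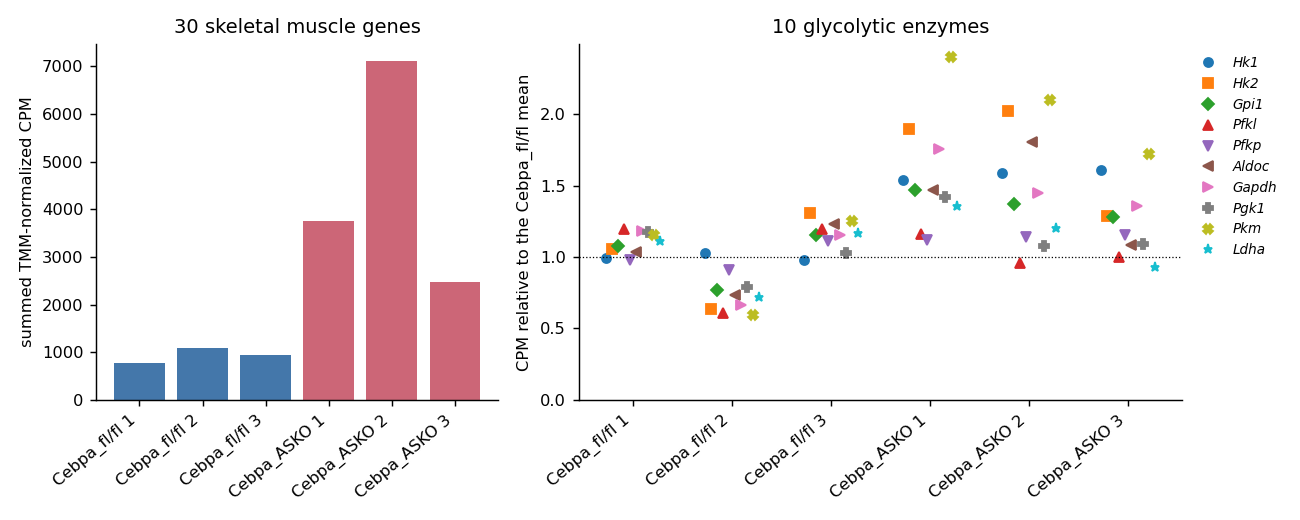
Left, the summed TMM-normalized CPM of 30 skeletal muscle genes in each library; right, the CPM of each of the 10 enzymes divided by its own mean over Cebpa_fl/fl. The muscle sum peaks in Cebpa_ASKO 2 at 7110 CPM, whereas *Pkm* and *Gapdh* are highest in Cebpa_ASKO 1 and *Hk1* differs little among the Cebpa_ASKO libraries.

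The summed level of mammary epithelium markers was also higher in each Cebpa_ASKO library than in any control. Of 10 such markers, 9 were above 0 on the log2 fold change scale, 6 were higher without overlap and none was called in edgeR (8 were higher and 1 lower at an unadjusted p below 0.05, and DESeq2 called 4 higher). The exception was *Trp63*, a basal cell factor, with a log2 fold change of -0.48 and no overlap (adjusted p = 0.211 in edgeR). Their sum was 1216, 838 and 1794 CPM in Cebpa_fl/fl and 2459, 2343 and 2444 CPM in Cebpa_ASKO, and the keratins *Krt8*, *Krt18* and *Krt19* led it in every library. Like most of the enzymes, this sum was lowest in Cebpa_fl/fl 2 among the controls. Within Cebpa_ASKO it differed little and ran from library 1 to library 3 to library 2, an order shared by *Pfkl* and *Pgk1* of the 10 enzymes. The share of all genes with that order was not computed. With the mammary share as a covariate, an alternative added after the values were seen, the enzymes had a median log2 fold change of -0.08, and 8 of the 10 were below 0, *Hk1* and *Pkm* being the exceptions. Because the mammary sum did not overlap between genotypes, this fit can hardly separate it from genotype. The part of epithelial RNA in the result was not tested. Of 10 adipocyte markers, 6 were called lower, and their sum was between 21221 and 24341 CPM in Cebpa_fl/fl and between 8569 and 11237 CPM in Cebpa_ASKO.

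Markers of other cells of the depot also differed between genotypes or libraries. All 8 endothelial markers were below 0, with *Emcn* and *Cldn5* called lower, and their sum was between 383 and 457 CPM in Cebpa_fl/fl and between 263 and 359 CPM in Cebpa_ASKO. All 5 tested erythroid markers were lower without overlap, with sums between 568 and 1051 CPM in Cebpa_fl/fl and between 362 and 496 CPM in Cebpa_ASKO. None was called in edgeR, 5 were lower at an unadjusted p below 0.05 and DESeq2 called 4 lower. The share of all genes lower without overlap was not computed. Of 10 macrophage markers, 6 were above 0 and none was called in edgeR or DESeq2 or had an unadjusted p below 0.05, with sums between 1060 and 2858 CPM and between 1715 and 2346 CPM. The macrophage and erythroid sums were both highest in Cebpa_fl/fl 2, the control library that was lowest for 9 of the 10 enzymes. All 9 tested lymphocyte markers were below 0 and none was called in edgeR. At an unadjusted p below 0.05, 6 were lower in edgeR, and DESeq2 called 3 lower. Their sum was 649, 176 and 103 CPM in Cebpa_fl/fl and 116, 106 and 152 CPM in Cebpa_ASKO. Cebpa_fl/fl 1 was thus far above the other controls, and Cebpa_fl/fl 3 was below every Cebpa_ASKO library. The part of these cells in the enzymes' differences was not tested.

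*Pfkfb1* and *Pfkfb3*, whose enzymes set the level of the phosphofructokinase activator fructose 2,6-bisphosphate, fell. *Pfkfb3* was at 583, 397 and 657 CPM in Cebpa_fl/fl and at 151, 136 and 171 CPM in Cebpa_ASKO (log2 fold change -1.84, standard error 0.209, adjusted p = 0.00495). *Pfkfb1* was at 52.3, 51.2 and 64.5 CPM and at 19.8, 15.9 and 21.5 CPM (-1.55, standard error 0.149, adjusted p = 0.00266). Neither overlapped between genotypes, and both stayed called when any 1 library was left out. They were the only called genes among 8 tested regulators of glycolysis, and *Pfkfb2* and *Pfkfb4* did not pass. Relative to *Pfkl*, a phosphofructokinase subunit, the *Pfkfb3* CPM ratio was 3.39, 4.50 and 3.81 in Cebpa_fl/fl and 0.902, 0.982 and 1.19 in Cebpa_ASKO. This is a description in counts not corrected for length, and *Pfkl* itself differed little (log2 fold change 0.05).

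**Figure D5:**
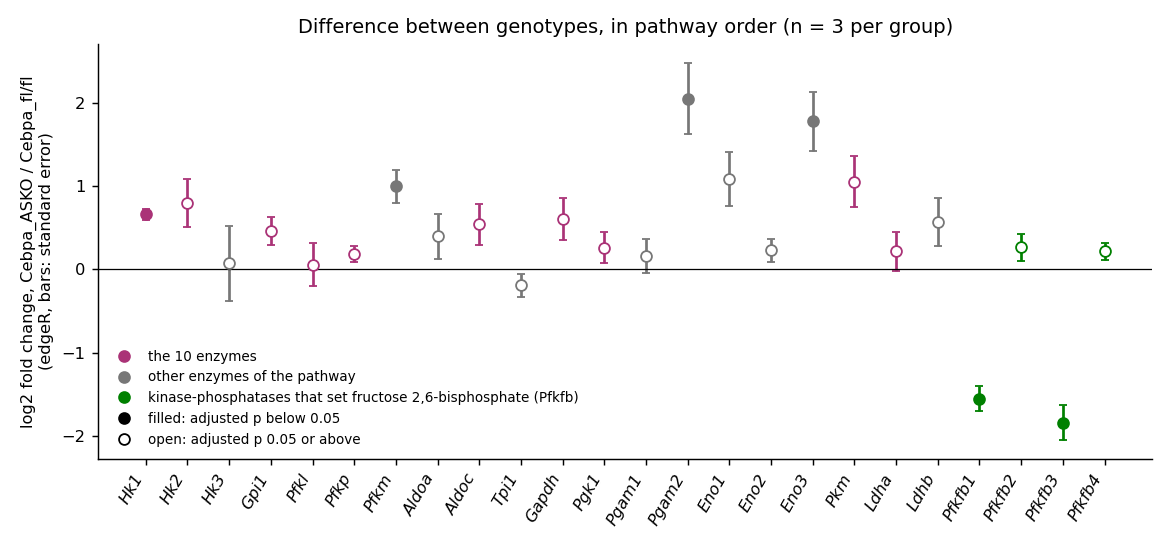
Fitted log2 fold change, Cebpa_ASKO over Cebpa_fl/fl, with its standard error for the 10 enzymes, other enzymes in pathway order and the *Pfkfb* genes (edgeR, n = 3 per genotype); filled points passed an adjusted p below 0.05. Of the 10 enzymes the *Hk1* point is filled, at 0.66, and the largest fall is that of *Pfkfb3* at -1.84.

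Of 11 transporters of glucose and lactate, none was called higher in edgeR and 2 were called lower, while DESeq2 called 3 higher and 3 lower. At an unadjusted p below 0.05 in edgeR, 3 were higher and 3 lower. *Bsg*, a chaperone of lactate transporters and the most abundant of the list, went from 424 ± 12.1 to 456 ± 61.5 CPM (SD, n = 3 each) and did not pass. *Slc2a4*, the insulin-responsive glucose transporter, was at 196, 169 and 272 CPM in Cebpa_fl/fl and at 232, 232 and 173 CPM in Cebpa_ASKO and overlapped. *Slc16a7*, a monocarboxylate transporter with high affinity for pyruvate, fell by 0.86 on the log2 scale from 31.4, 36.0 and 36.7 to 20.6, 18.5 and 18.1 CPM (adjusted p = 0.00504). *Slc2a12*, a further glucose transporter, fell by 0.89 (adjusted p = 0.0466) and was not called without any 1 of the 6 libraries. *Slc16a1*, the common lactate transporter, was at 119, 46.7 and 72.6 CPM and at 241, 180 and 186 CPM, without overlap (log2 fold change 1.35, adjusted p = 0.0731 in edgeR and 0.00103 in DESeq2).

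Of 17 genes that act on the fate of pyruvate, edgeR called 1 higher and 2 lower, against 1.39% and 3.84% of all genes. DESeq2 called 1 higher and 4 lower, and the counts were the same at an unadjusted p below 0.05 in edgeR. Without overlap, 1 was higher and 4 were lower. *Gpt2*, which interconverts pyruvate and alanine in mitochondria, fell by 2.50 on the log2 scale, from 111, 126 and 160 to 21.7, 23.5 and 25.2 CPM (adjusted p = 0.000724). *Pcx*, which carboxylates pyruvate to oxaloacetate, fell by 1.59 (adjusted p = 0.0409), from 1366, 901 and 2140 to 487, 418 and 559 CPM. It was no longer called without Cebpa_fl/fl 1 or 3 or without any 1 of the Cebpa_ASKO libraries. *Pdp1*, the phosphatase that activates pyruvate dehydrogenase, rose by 0.85 (adjusted p = 0.0252), a call kept without Cebpa_fl/fl 2 or Cebpa_ASKO 3 and lost without any other library.

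In the pentose phosphate pathway, 7 of 8 genes were below 0 and *Rpe*, an epimerase, was called (log2 fold change -0.64, adjusted p = 0.00849), while *Tkt*, a transketolase and the most abundant, was at 1774, 676 and 2741 CPM in Cebpa_fl/fl and at 2355, 1809 and 1623 CPM in Cebpa_ASKO, with overlap. In glycogen metabolism, *Gys1* (-0.84), *Gyg* (-0.68) and *Pygb* (-0.63), which make or break down glycogen outside muscle as well, were called lower, *Gyg* also without each library in turn. *Gys1* was lost without any library but Cebpa_fl/fl 2, and *Pygb* without Cebpa_fl/fl 3 or any 1 Cebpa_ASKO library. *Pygm*, the muscle glycogen phosphorylase, was called higher at 2.34, a call lost without Cebpa_fl/fl 1, Cebpa_fl/fl 3 or Cebpa_ASKO 1. Its counts here covered 50.0% of the authors' TPM for the symbol. *Pygl*, the liver-type phosphorylase and the most abundant of the list, was at 353, 202 and 472 CPM in Cebpa_fl/fl and at 268, 212 and 210 CPM in Cebpa_ASKO, with overlap (adjusted p = 0.356 in edgeR).

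Among 8 transcription factors that act on glycolytic genes, *Epas1* fell from 247, 242 and 274 to 185, 171 and 166 CPM (log2 fold change -0.55, adjusted p = 0.0291) and *Myc* rose from 25.8, 26.2 and 23.1 to 33.9, 35.9 and 32.8 CPM (0.45, adjusted p = 0.0344). Both stayed called without Cebpa_fl/fl 2 and were lost without any other library. *Hif1a*, which encodes the oxygen-regulated activator of many glycolytic genes, was at 133, 76.1 and 135 CPM and at 148, 115 and 160 CPM and overlapped. Of 19 hypoxia-inducible genes outside glycolysis, none was called higher in edgeR or DESeq2. DESeq2 called 3 lower and edgeR 2, against 3.84% of all genes called lower in edgeR. At an unadjusted p below 0.05 in edgeR, 7 were higher, against 9.44% of all genes, and 3 were lower. The 2 called lower in edgeR were *Bnip3*, a mitophagy receptor (log2 fold change -1.81, adjusted p = 0.00835), and *Egln3*, a prolyl hydroxylase (-1.26, adjusted p = 0.0240). The *Bnip3* call was lost without Cebpa_ASKO 1, and that of *Egln3* without Cebpa_fl/fl 3 or any 1 Cebpa_ASKO library. *Vegfa*, the endothelial growth factor, was at 179, 184 and 262 CPM and at 139, 130 and 199 CPM and overlapped.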

How the data were processed

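Whole iWAT of 3 Cebpa_fl/fl and 3 Cebpa_ASKO mice was measured by paired-end RNA-seq, and groups and replicate numbers came from the sample titles. The authors deposited kallisto (0.44.0 per the submitters' processing notes) estimated counts and TPM per transcript, without further normalization, and TPM summed per gene symbol. The transcript annotation was not given in the sources used here, and the notes name GRCm38 and GRCh38. Estimated counts were summed per symbol with GENCODE M21 (GRCm38), which matched 116816 of 118489 transcripts and at least 99.5% of each library's counts, and rounded. kallisto divides reads among similar transcripts, so genes with near copies are less certain.

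Differential expression used edgeR 4.0.16 (quasi-likelihood test, TMM, default filter, Benjamini-Hochberg over 16069 genes), tested on simulated data, under R 4.3.3. Shares were compared by exact two-sided permutation over 20 arrangements. The edgeR p-values judge the difference between genotypes against the spread between these mice. Replicates differed beyond sampling noise, with a chi-square over its degrees of freedom of 26.9 or more. Near copies were found with blastn 2.17.0.

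Alternatives were DESeq2 1.42.0, its size factors, total counts, all genes with a count, at least 10 counts in every library, an effective length offset, limma 3.58.1 on log2(TPM + 1) or log2(TPM + 0.1) with a minimum TPM of 1 in 3 libraries and without that filter, a replicate block, muscle and mammary shares as covariates, near copies added, and each library left out. The pseudocount makes fold changes of low genes look smaller than they are. The study names DESeq2.

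The enzymes and the gene lists, written from general knowledge, were chosen with earlier results of these data known. Named genes were all 10 enzymes, called members and the most abundant gene of each pathway list, isozymes of the 10, and *Cebpa* and *Adipoq*. Cell type markers and reference genes were given as lists, with examples. Those examples, *Slc16a1*, *Slc2a4*, *Hif1a*, *Vegfa* and the *Pfkfb* genes that were not called were named outside that rule, after their values were seen.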

Additional observations from a re-analysis of the deposited data

How the results depend on the processing

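*Hk1* was called in 18 of 20 fits, with log2 fold changes from 0.63 to 0.72, and the exceptions were the 2 covariate fits. The count of enzymes called higher went from 1 to 2 with DESeq2, which added *Pkm*, and to 0 with the muscle share and with the mammary share as a covariate. It stayed at 1, and the count called lower at 0, without each library in turn. The median log2 fold change of the enzymes lay between 0.32 and 0.61 without each library, and between 0.48 and 0.63 under the other alternatives but the mammary share. It reversed to -0.083 in the fit with the mammary share, which can hardly be separated from genotype. That fit also reversed *Hk2* to -0.087, *Gpi1* to -0.067, *Pfkl* to -0.81, *Pfkp* to -0.11, *Aldoc* to -0.092, *Gapdh* to -0.079, *Pgk1* to -0.035, *Ldha* to -0.35 and *Pgam1* to -0.42. The muscle share reversed *Aldoc* to -0.16, *Pfkm* to -0.031, *Eno3* to -0.28 and *Pgam2* to -0.45. *Pfkl* lay between -0.22 and 0.20 without each library, below 0 without Cebpa_fl/fl 2 (-0.22) and without Cebpa_ASKO 1 (-0.032). *Pgam1* lay between -0.041 and 0.30 without each library. The cause was not tested. The 3 other enzymes called became 4 with DESeq2, 1 with the replicate block and 0 under limma without a filter and both covariates, and between 0 and 3 without each library. The *Hk2* share difference was between -2.42 and 7.60 percentage points without each library, turning negative without Cebpa_fl/fl 2 (-2.42) or Cebpa_ASKO 1 (-1.04). That of *Aldoc* was between -0.00510 and 0.0929, negative without Cebpa_ASKO 2. The M1 share difference was between 3.75 and 6.58, and 6.04 in TPM. Replicate numbers were not taken to pair the samples. Deviations of same-numbered libraries from their group means correlated at 0.116, -0.0258 and -0.278. With 3 libraries per group this check cannot settle whether any were paired. With the replicate block 370 genes were called in place of 840, 1 enzyme (*Hk1*) stayed called higher, and the exact sign-flip permutation test of shares cannot go below 0.25. All genes called numbered 1796 with DESeq2, 359 under limma without a filter, 173 with the mammary share and 0 with the muscle share, and 311 to 922 without each library. Every enzyme had 499 counts or more per library. The spread between mice reached a coefficient of variation of 35.8% (*Pkm* in Cebpa_fl/fl), but for *Hk1* (2.67% and 2.21%) and for *Pfkp* in Cebpa_ASKO (1.77%) it was of the size of counting error, so depth also limits their precision.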
